A study of Mus musculus with 18 samples.

Results

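Pancreatic islets that lack TRAF3 in insulin-producing cells were set directly against islets that lack TRAF2 in those cells, both from mice fed a high-fat diet (HFD). The comparison rested on 6 of the 18 arrays of the series, 3 for each knockout, chosen by their titles, and no control array entered the contrast. The first group was RIPCre; TRAF3loxP/loxP and the second RIPCre; TRAF2loxP/loxP, where RIP-Cre is a Cre recombinase under the rat insulin promoter, so that deletion is directed to beta cells while the other cells of the islet keep the gene. The HFD control arrays, which enter here as levels and, with the chow arrays, in the estimate of the spread, came from floxed littermates, whose floxed gene and Cre status the labels do not give. All mice were C57BL/6 of either sex, 16 weeks old, and HFD, with 45% of its energy as fat, was given for 8 weeks from 8 weeks of age. The 9 remaining arrays were of the same 3 genotypes on chow. Total RNA (250 ng) was labelled with biotin and hybridised to Affymetrix whole-transcript arrays, and the deposited values are log2 expression per probe set. No label states that a sample came from 1 separate animal, so p-values measure the spread between these samples, which may be partly technical.

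TRAF2 and TRAF3 are adaptor proteins that act together with cIAP ubiquitin ligases to keep NF-kB-inducing kinase (NIK) at a low level in resting cells. Loss of either one lets NIK build up, which drives processing of the NF-kB2 precursor and the non-canonical NF-kB pathway. TRAF2 also carries signals from TNF receptors to canonical NF-kB and JNK, and TRAF3 takes part in interferon induction by pattern receptors. The study asked what NIK activation in beta cells does in obesity, and the direct contrast shows where islets of the 2 knockouts differed from each other on HFD.

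A table with 1 row per gene, 22180 genes in all, was fitted with limma over all 18 arrays, and a gene passed at an adjusted p under 0.05 over all genes. Islet hormones were high in all 6 arrays. Gcg, Sst and Ppy, the hormones of alpha, delta and PP cells, lay between 12.8 and 13.3. Ins2 was lower, between 11.69 and 11.98, and the maxima of the 18 arrays were 13.49 to 13.64. Acinar enzymes were also high (Cpa1 between 12.85 and 13.51), so exocrine RNA was present in both groups. Traf2 itself read 7.16, 7.19 and 7.09 in TRAF3 knockout islets, 6.94, 7.15 and 6.90 in TRAF2 knockout islets and 6.98, 7.03 and 6.46 in HFD controls. The knockouts overlapped, and since the probe set covers the whole transcript and islets hold other cells, it does not check the deletion. TRAF3's own transcript was not analysed here.

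Array 3 of the HFD TRAF3 knockout stood apart. Its correlation with the other arrays of its group was at most 0.972, against 0.983 between those other arrays and 0.991 to 0.993 among the HFD TRAF2 knockouts. The closest array to it was a chow control (0.987), as that to array 1 was a chow TRAF2 knockout (0.986). Markers of sex showed that array 1 of each HFD knockout was male and arrays 2 and 3 female, so the 2 knockouts were balanced, while the 3 HFD controls were all female. The median SD of a gene was 0.228 in TRAF3 knockouts, 0.128 in TRAF2 knockouts and 0.197 in HFD controls. Counts are given with and without TRAF3 knockout array 3 where it matters.

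On HFD 233 genes differed between the knockouts (1.05% of those tested): 139 were higher in TRAF3 knockout islets (0.627%) and 94 were lower (0.424%). In all, 2482 genes had an unadjusted p under 0.05. The genes that passed were separated widely, with a median log2 difference of 1.27 among those higher and -1.25 among those lower, against -0.01 over all genes. Differences over 2-fold were found for 90 of the rises and 55 of the falls. In every one of the 233, the 3 arrays of one knockout lay above the 3 of the other, an order that 8.26% of all genes had with the TRAF3 knockout above and 9.74% with it below. The same arrays selected the 233, so this order is not separate evidence. Without TRAF3 knockout array 3 the count was 257 (195 higher and 62 lower), of which 156 were among the 233. Leaving out TRAF2 knockout array 1, 2 or 3 gave 91, 60 and 69 genes, and leaving out TRAF3 knockout array 1 or 2 gave 137 and 139.

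**Figure D1:**
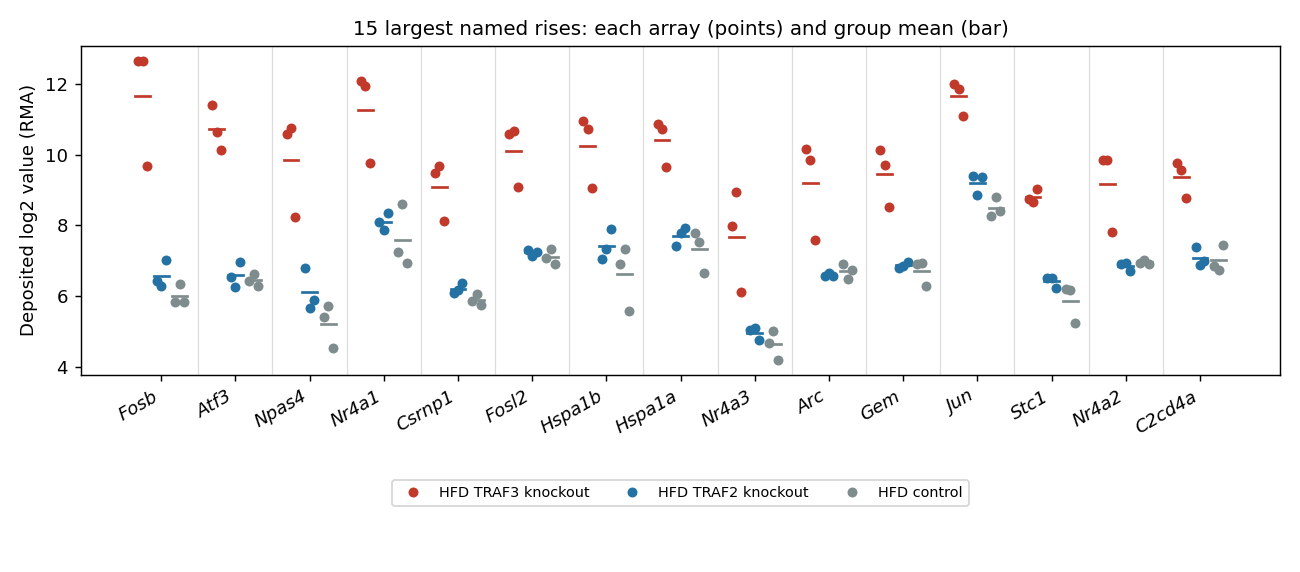
Deposited log2 values (vertical axis) of the 15 genes with the largest rises that passed, with 3 points per group for HFD TRAF3 knockout, HFD TRAF2 knockout and HFD control and a bar at each group mean. TRAF3 knockout arrays lie above all TRAF2 knockout arrays for each gene, and array 3, drawn as the rightmost red point, is the lowest of its group for 14 of them (Stc1 is the exception).

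The largest rises in TRAF3 knockout islets were of immediate early genes, which cells transcribe within minutes of a stimulus without new protein synthesis. Fosb, an AP-1 subunit, read 12.64, 12.65 and 9.68 in TRAF3 knockout islets, against 6.43, 6.28 and 7.02 in TRAF2 knockout islets and 5.85, 6.34 and 5.83 in controls. All 3 TRAF3 knockout arrays were high and the TRAF2 knockouts sat with or slightly above the controls, a log2 difference of 5.08 ± 0.99 (SE, adjusted p = 0.020), or 33.8-fold. Atf3, a stress-induced repressor of the same bZIP family, read 11.41, 10.64 and 10.12 in TRAF3 knockouts and 6.55, 6.28 and 6.96 in TRAF2 knockouts, a difference of 4.13 ± 0.60 (adjusted p = 0.0036). Npas4, a depolarisation-induced factor known in neurons and beta cells, read 10.59, 10.76 and 8.24 in TRAF3 knockouts and 6.80, 5.68 and 5.90 in TRAF2 knockouts, a difference of 3.73 ± 0.74.

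The nuclear orphan receptors of the NR4A family rose as a group. Nr4a1 read 12.08, 11.93 and 9.76 in TRAF3 knockout islets, against 8.10, 7.88 and 8.35 in TRAF2 knockout islets (3.15 ± 0.67, adjusted p = 0.032). Nr4a3 was higher by 2.70 ± 0.53 and Nr4a2 by 2.31 ± 0.41. Jun, the partner of Fos proteins in AP-1, read 11.98, 11.85 and 11.10 in TRAF3 knockouts and 9.40, 8.85 and 9.37 in TRAF2 knockouts (2.43 ± 0.30, adjusted p = 0.0014), with controls at 8.28, 8.81 and 8.42. Here the TRAF2 knockouts were themselves above every control. Fosl2 (2.87), Csrnp1 (2.88), a nuclear protein named for its serine- and cysteine-rich stretches, and Arc (2.60), an activity-regulated gene of neurons, also rose, as did Gem, a small GTPase that restrains voltage-gated calcium channels (10.13, 9.71 and 8.53 in TRAF3 knockouts, 6.79, 6.86 and 6.96 in TRAF2 knockouts). In each of these TRAF3 knockout array 3 was the lowest of its group and still above every TRAF2 knockout array.

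Of the 13 immediate early genes listed, 8 passed, all higher (0.627% of all genes were). All 13 had their TRAF3 knockout arrays above the TRAF2 knockout arrays, where 8.26% of all genes had that order. Besides those already given, Zfp36, which speeds decay of AU-rich mRNAs (1.79), Btg2, an antiproliferative factor (1.78), Junb (1.78) and Ier2 (1.52) passed. Egr1 (2.34, adjusted p = 0.065), Ier3 (1.92, 0.060), Dusp1 (1.16, 0.11), Egr2 (0.84, 0.086) and Fos itself (1.94, 0.21) did not. The median over the list was 1.92. Without TRAF3 knockout array 3, 12 of 13 passed and the median was 2.23, while without any other one of the 6 arrays 3 to 5 passed (4, 3 and 4 without TRAF2 knockout array 1, 2 or 3, and 4 and 5 without TRAF3 knockout array 1 or 2). Fosb, Nr4a1, Npas4, Arc and Nr4a3 each passed without TRAF3 knockout array 3 and missed the threshold without any one of the other 5 arrays, and Nr4a2 missed it without TRAF2 knockout array 2 or 3 or TRAF3 knockout array 1. Btg2 passed in all 6 such fits, Junb missed the threshold without TRAF2 knockout array 1 or 2, and Ier2 passed only without TRAF3 knockout array 3.

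Related families were grouped after their values were seen, share members with the immediate early list, and are given as a description. Among 13 measured AP-1 and small Maf genes, 8 were higher (0.627% of all genes were), with Jund (1.17), Maff (1.52) and Mafk (1.54) beside those above. A dimmer probe set of Jund gave 0.24 without passing. For Mafk the values were 8.85, 8.52 and 8.95 in TRAF3 knockouts and 7.33, 7.11 and 7.28 in TRAF2 knockouts, and array 3 was not the lowest. Of 10 dual-specificity phosphatases, which switch off MAP kinases, 4 were higher (0.627% of all genes were): Dusp8 (1.82), Dusp10 (1.81), Dusp5 (1.71) and Dusp4 (1.69). Klf4 (2.10), Klf9 (1.09) and Klf7 (1.00) passed among 17 Kruppel-like factors, all higher (0.627% of all genes were). A dimmer probe set of Klf7 gave 0.12 without passing. Srf, the factor that drives many immediate early genes, was higher by 2.14 ± 0.34. The nuclear RNA Neat1, the scaffold of paraspeckles, read 8.17, 7.35 and 8.03 in TRAF3 knockouts, against 6.06, 6.12 and 6.10 in TRAF2 knockouts (1.75, adjusted p = 0.0016). Its genomic neighbour Malat1 had a difference of 0.75 (adjusted p = 0.21). Without TRAF2 knockout array 1, 2 or 3 the AP-1 and small Maf count was 4, 5 and 5, the phosphatase count 2, 1 and 1 and the Kruppel-like count 2, 0 and 2, while without TRAF3 knockout array 1 or 2 the phosphatase count was 2 each time. Mafk, Dusp10, Srf and Neat1 passed in all 6 such fits. Jund, Dusp4, Dusp5 and Klf7 passed only without TRAF3 knockout array 3, while Maff missed the threshold without TRAF2 knockout array 1 or 3, Dusp8 without TRAF2 knockout array 2 or 3, and Klf4 and Klf9 without TRAF2 knockout array 2.

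Chaperone and stress-response genes rose in part. Of 10 heat shock genes 4 passed, all higher (0.627% of all genes were): Hspa1b (2.82), Hspa1a (2.72), the cochaperone Bag3 (1.11 ± 0.17) and Hsp90aa1 (0.61). Hspa1a read 10.86, 10.72 and 9.66 in TRAF3 knockout islets, against 7.41, 7.77 and 7.92 in TRAF2 knockout islets and 7.79, 7.53 and 6.65 in controls. Hspa1a and Hspa1b are near-identical copies, and probes may not tell them apart, so they are best read as 1 signal. Bag3 was the tightest, at 9.30, 9.21 and 9.33 in TRAF3 knockouts and 8.24, 8.18 and 8.08 in TRAF2 knockouts. Mitochondrial Hspd1 (-0.05) and Hspe1 (-0.12) and constitutive Hspa8 (0.10) had small differences that did not pass. Leaving out 1 array at a time gave 2 to 3 heat shock genes, except without TRAF3 knockout array 3 (5). Hsp90aa1 missed the threshold in all 6 of those fits, and Hspa1b passed only without TRAF2 knockout array 3 or TRAF3 knockout array 3.

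Of 24 genes of endoplasmic reticulum (ER) and integrated stress, 3 passed, all higher (0.627% of all genes were): Atf3, Ppp1r15a and Atf4. Ppp1r15a, which encodes GADD34 and reverses eIF2alpha phosphorylation, read 8.95, 8.73 and 7.83 in TRAF3 knockouts, against 6.55, 6.54 and 6.49 in TRAF2 knockouts and 6.21, 6.55 and 6.01 in controls (1.97 ± 0.29, adjusted p = 0.0042). Atf4, the central factor of the integrated stress response, was higher by 0.92 ± 0.18, and kept the call only without TRAF2 knockout array 1 or TRAF3 knockout array 3. Ddit3, which encodes CHOP, had a difference of 1.97 with an adjusted p of 0.051. ER chaperones and degradation genes gave Hspa5 0.64, Hsp90b1 0.04, Dnajb9 0.02, Sel1l -0.17 and Pdia6 -0.21, none passing, and the list median was 0.10. Without TRAF3 knockout array 3 the count was 7, without TRAF2 knockout array 1 it was 3, and in the other 4 such fits it was 2.

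Promoters of the genes that rose were searched for short motifs, since so many immediate early genes moved together, and 4 are printed because each carries a motif described next. RefSeq windows on GRCm38.p6, from 250 bases before to 50 bases after a gene start, were matched by gene ID for 105 of the 139 genes higher (141 windows) and for 63 of the 94 genes lower (70 windows). The motifs were the cAMP response element (CRE) TGACGTCA, its half-site TGACG, the CArG box bound by SRF, the kappaB core (GGGA and TCC with 3 bases between), the interferon-stimulated response element core (GAAA and GAAA with 2 between), the STAT-type GAS core TTCNNNGAA and the heat shock element core, each on both strands. CRE, half-site, CArG box and heat shock element were added after the values had been seen, and every full CRE also holds 2 half-sites. The 250 bases before the start are printed, in the direction of the gene, with matches of CRE, half-site, CArG box and kappaB core in capitals.

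Nr4a1, chr15:101266596-101266845, plus strand: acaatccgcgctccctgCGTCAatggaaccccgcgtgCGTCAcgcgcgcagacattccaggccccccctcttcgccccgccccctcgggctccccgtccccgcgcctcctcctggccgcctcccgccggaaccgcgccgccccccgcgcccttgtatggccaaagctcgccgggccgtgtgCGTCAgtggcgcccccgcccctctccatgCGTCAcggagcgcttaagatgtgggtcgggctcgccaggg
Ppp1r15a, chr7:45526269-45526518, minus strand: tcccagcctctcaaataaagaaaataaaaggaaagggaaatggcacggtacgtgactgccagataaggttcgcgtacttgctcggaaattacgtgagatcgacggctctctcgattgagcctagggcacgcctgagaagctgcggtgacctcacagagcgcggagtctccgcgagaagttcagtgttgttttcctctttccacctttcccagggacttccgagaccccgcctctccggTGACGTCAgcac
Zfp36, chr7:28379229-28379478, minus strand: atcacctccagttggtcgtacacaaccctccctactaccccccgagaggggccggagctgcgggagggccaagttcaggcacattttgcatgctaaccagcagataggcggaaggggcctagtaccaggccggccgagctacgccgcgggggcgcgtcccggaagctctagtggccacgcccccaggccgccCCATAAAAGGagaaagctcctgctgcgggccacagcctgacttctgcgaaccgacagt
Nfkbia, chr12:55492648-55492897, minus strand: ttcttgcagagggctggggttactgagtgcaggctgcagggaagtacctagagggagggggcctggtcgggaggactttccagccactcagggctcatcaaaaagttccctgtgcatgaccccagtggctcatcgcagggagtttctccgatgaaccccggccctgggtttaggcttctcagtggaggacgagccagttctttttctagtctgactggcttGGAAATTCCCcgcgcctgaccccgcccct

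The Nr4a1 sequence holds 4 half-sites, the Ppp1r15a sequence a full CRE that begins 12 bases before the start, the Zfp36 sequence a CArG box 58 bases before it and the Nfkbia sequence a kappaB core 29 bases before it. The full CRE was present in 13 of 141 windows of genes higher in TRAF3 knockouts (9.22%), in 0 of 70 of genes lower and in 1.79% of all 32851 windows. The half-site was in 53.2% of windows of genes higher, 12.9% of genes lower and 20.8% of all. The CArG box was in 7.09%, 2.86% and 1.63%, and the kappaB core in 7.80%, 5.71% and 4.59%. The interferon element was in 2.84%, 5.71% and 3.44%, the GAS core in 6.38%, 7.14% and 8.30% and the heat shock element in 0%, 1.43% and 0.603%. Windows of tested genes held the CRE in 2.32% and the half-site in 24.3%. These shares are descriptions, base composition was not matched, and a match is not evidence of binding.

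Canonical NF-kB feedback genes were raised in part, and non-canonical genes did not pass with all arrays in the fit. Of 16 canonical genes 3 were higher (0.627% of all genes were): Bcl3 (1.64), a nuclear IkB protein, Nfkbiz (1.46), another, and Nfkbia (0.85), the IkBalpha inhibitor that NF-kB itself induces. Nfkbia read 9.65, 9.50 and 8.81 in TRAF3 knockout islets, 8.37, 8.56 and 8.49 in TRAF2 knockout islets and 8.15, 8.23 and 7.90 in controls. The groups do not overlap, with the TRAF2 knockouts between. Leaving out TRAF3 knockout array 3 raised the count to 5, leaving out TRAF3 knockout array 1 gave 1, and leaving out any of the other 4 arrays gave 0 in limma. Bcl3 passed only without TRAF3 knockout array 1, and it was not among the 5 (adjusted p = 0.084 there), whereas Nfkbia and Nfkbiz passed only without TRAF3 knockout array 3. Of 13 non-canonical genes none passed in limma (5 had an unadjusted p under 0.05): Nfkb2, the precursor that NIK signalling processes, had 7.94, 8.16 and 7.99 in TRAF3 knockouts, 7.06, 7.15 and 6.90 in TRAF2 knockouts and 6.56, 6.55 and 6.20 in controls, a difference of 1.00 ± 0.29 with an adjusted p of 0.14. Map3k14, which encodes NIK, had 0.80 (adjusted p = 0.098) and Relb 0.52 (0.33). Without TRAF3 knockout array 3, 1 of the 13 non-canonical genes passed, higher, and none did without any other 1 of the HFD knockout arrays.

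Socs3, the feedback inhibitor of STAT3 signalling, was the only 1 of 15 genes of the IL-6 and acute phase list that passed, higher (0.627% of all genes were). It read 8.07, 8.42 and 7.68 in TRAF3 knockouts, against 6.11, 5.95 and 5.98 in TRAF2 knockouts (2.04 ± 0.29, adjusted p = 0.0027), and a dimmer probe set of the gene gave 1.02 without passing. Il6, the cytokine itself, had 6.11, 7.18 and 5.30 in TRAF3 knockouts and 3.55, 2.94 and 3.56 in TRAF2 knockouts, with no overlap, but the difference of 2.84 ± 0.66 had an adjusted p of 0.051. Il1b (1.56) and Il1a (1.48), 2 interleukin-1 genes, did not pass either, and neither did any of 21 chemokines in limma (4 had an unadjusted p under 0.05), with Cxcl1 at 0.69, Cxcl2 at 0.61 and Cxcl3 at 0.58. Of 14 cytokine and adhesion genes none passed with all arrays and 1 passed, higher, without TRAF3 knockout array 3. The clock repressor Cry1 was higher by 0.87 ± 0.17, the single gene passing of 13 clock genes (0.627% of all genes were higher). Cry1 too passed without TRAF3 knockout array 3, and in none of the 5 other such fits. The clock count was 4 without TRAF3 knockout array 3 and 0 in those 5. C2cd4a, a beta cell gene responsive to cytokines, was higher by 2.28 ± 0.35 and Stc1, a secreted glycoprotein, by 2.38 ± 0.48, the second of which missed the threshold in all 6 fits that left out an array.

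**Figure D2:**
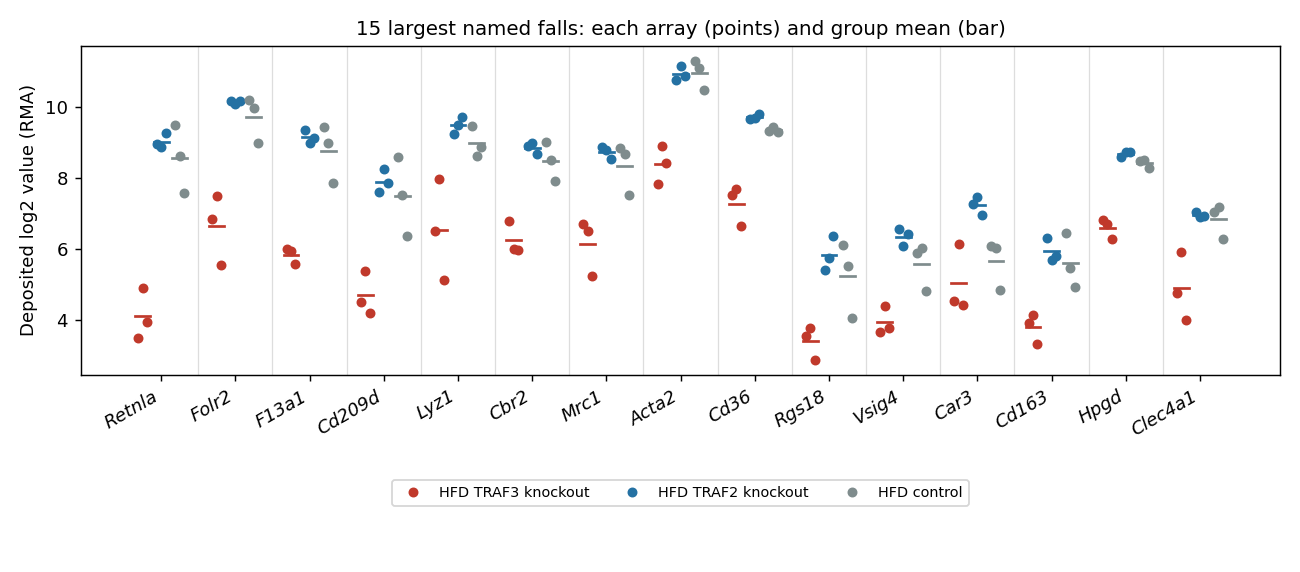
Deposited log2 values of the 15 genes with the largest falls that passed, with 3 points per group for HFD TRAF3 knockout, HFD TRAF2 knockout and HFD control and a bar at each group mean. TRAF3 knockout arrays lie below all TRAF2 knockout arrays for each gene, and TRAF2 knockouts overlap the controls except for Car3, Cd36, Hpgd and Vsig4, where they lie above.

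The largest falls were of genes of tissue-resident, alternatively activated macrophages. In a bulk sample fewer cells of a type and less RNA per cell cannot be told apart. Retnla, a secreted protein of such macrophages, read 3.49, 4.89 and 3.94 in TRAF3 knockout islets, against 8.94, 8.85 and 9.27 in TRAF2 knockout islets and 9.49, 8.62 and 7.57 in controls. The TRAF3 knockouts were low in every array and the TRAF2 knockouts sat inside the range of the controls, a difference of -4.91 ± 0.41 (adjusted p = 5.0e-05). The mean of 4.11 in TRAF3 knockouts was below the medians of the arrays (4.80 to 4.96) and whether it was above background could not be read, so no fold is given. Folr2, a folate receptor of resident macrophages, read 6.85, 7.50 and 5.54 in TRAF3 knockouts and 10.17, 10.07 and 10.17 in TRAF2 knockouts (-3.51 ± 0.45). F13a1, coagulation factor XIII A, read 5.98, 5.93 and 5.56 in TRAF3 knockouts and 9.35, 8.99 and 9.11 in TRAF2 knockouts (-3.33 ± 0.36, adjusted p = 0.00039).

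Several lectins and scavenger receptors were among the genes lower. Mrc1, the mannose receptor CD206, fell by 2.59 on the log2 scale, Cd209d by 3.20, Cd163, a haemoglobin scavenger receptor, by 2.14 and Mgl2 by 1.75, as did Vsig4, a complement receptor (-2.42), Clec4a1 (-2.06), Rgs18 (-2.44) and the enzymes Cbr2 (-2.61 ± 0.25) and Hpgd (-2.09 ± 0.27), which degrades prostaglandins. Cd36, a fatty acid transporter of macrophages and endothelium, read 7.50, 7.67 and 6.64 in TRAF3 knockouts, against 9.66, 9.67 and 9.79 in TRAF2 knockouts. It was the single gene passing of 18 in the lipid and PPAR list (0.424% of all genes were lower). Lyz1 (-2.96) and Clec4a1 each passed only when TRAF3 knockout array 2 was the array left out, among the 6 such fits. Rgs18 missed the threshold without TRAF2 knockout array 3, Mgl2 without TRAF2 knockout array 1 and Adgre1 without any 1 TRAF2 knockout array.

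Of 20 general macrophage and myeloid genes 6 passed, all lower (0.424% of all genes were), with a list median of -1.15. These were Retnla, Mrc1, Cd163, Mgl2, Adgre1, an adhesion receptor that marks mouse macrophages (-1.73), and Csf1r, the receptor for the macrophage growth factor (-1.57). For 14 of the 20 the TRAF3 knockout arrays all lay below the TRAF2 knockout arrays, where 9.74% of all genes had that order. Pan-myeloid genes gave Lyz2 -1.69, Tyrobp -1.27, Cd68 -0.88, Itgax -0.37, Aif1 -0.28 and Cd14 0.54, none passing. Of 19 alternatively activated macrophage genes grouped after their values were seen, 14 were lower (0.424% of all genes were). Arg1 (-0.29), Chil3 (-0.08) and Cd209a (-0.24) were among the 5 that did not pass. The general list had 5 members lower without TRAF3 knockout array 3 (median -0.70) and 3, 4 and 4 without TRAF2 knockout array 1, 2 or 3, and the grouped list had 12 without TRAF3 knockout array 3, 9 without each TRAF2 knockout array in turn and 10 and 13 without TRAF3 knockout array 1 or 2. Csf1r passed only without TRAF3 knockout array 2 among these fits. Leaving out TRAF3 knockout array 3 gave Lyz2 -0.74, Cd68 -0.49 and Itgax -0.11, and leaving out TRAF3 knockout array 2 gave Itgax -0.74. In 3 other immune lists no member passed in limma with all arrays, though most differences were negative. Without TRAF3 knockout array 2, 1 complement gene and 1 MHC class II gene passed, each lower. Of 11 complement genes 9 had a negative difference (median -0.42, 5 with an unadjusted p under 0.05), and in 4 all TRAF3 knockout arrays lay below the TRAF2 knockout arrays (9.74% of all genes). Among these were the C1q subunits, which start the classical pathway, at -0.76 for C1qa (adjusted p = 0.12), -1.09 for C1qb (0.18) and -1.25 for C1qc (0.24). All 9 MHC class II genes had a negative difference (median -0.60, 4 with an unadjusted p under 0.05). The TRAF3 knockout arrays were all below in 1 of the 9, near the share of 9.74% over all genes. Of 15 lymphocyte genes 13 had a negative difference (median -0.39), none had an unadjusted p under 0.05 or kept the groups apart, and Cd3e read 5.56, 8.85 and 5.41 in TRAF3 knockouts and 5.60, 6.83 and 7.09 in TRAF2 knockouts.

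Some contractile genes of smooth muscle and pericytes fell too. Acta2, smooth muscle actin, read 7.82, 8.90 and 8.41 in TRAF3 knockouts, against 10.74, 11.13 and 10.85 in TRAF2 knockouts and 11.29, 11.10 and 10.48 in controls (-2.53 ± 0.39, adjusted p = 0.0058). Myh11, smooth muscle myosin, read 5.98, 6.56 and 6.29 in TRAF3 knockouts and 8.26, 8.40 and 8.26 in TRAF2 knockouts (-2.03 ± 0.25), and Tagln, an actin-binding protein, fell by 1.60. These 3 were the members passing out of 15, all lower (0.424% of all genes were). Among the members that did not pass were the mural cell genes Pdgfrb (-0.46), Notch3 (-0.45), Rgs5 (-0.40) and Abcc9 (0.09). The fibroblast gene Dcn had -1.05 and none of 14 collagens passed in limma (1 had an unadjusted p under 0.05). Without TRAF3 knockout array 3 the differences were -0.19 for Dcn, -0.22 for Notch3 and -0.11 for Rgs5, while Dcn had -1.60 without TRAF3 knockout array 2 and Rgs5 -0.64 without TRAF3 knockout array 1. Among 14 endothelial genes Cldn5, a tight junction claudin, was the 1 that passed, lower (-1.37, with 0.424% of all genes lower). The Schwann cell cadherin Cdh19 (-1.26) and Car3, a carbonic anhydrase of adipose tissue (-2.21), were also lower. They were the 1 gene passing of 8 and of 9 in their lists, beside the same share of 0.424%. A dimmer probe set of Car3 gave -0.26, and Car3 passed only without TRAF3 knockout array 2 among the fits that left out 1 array. Of 8 mast cell genes grouped after their values were seen, the proteases Mcpt4 (-1.72), Cpa3 (-1.68) and Tpsb2 (-0.93) were lower (0.424% of all genes were). Kit (-0.03) and Fcer1a (-0.05) had small differences. Without TRAF3 knockout array 3 or TRAF2 knockout array 1, 1 of the 8 passed (Cpa3 in the first fit and Mcpt4 in the second), and none did without any other 1 array. Tagln and Cdh19 missed the threshold without TRAF2 knockout array 3, and Cldn5 without TRAF2 knockout array 2.

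**Figure D3:**
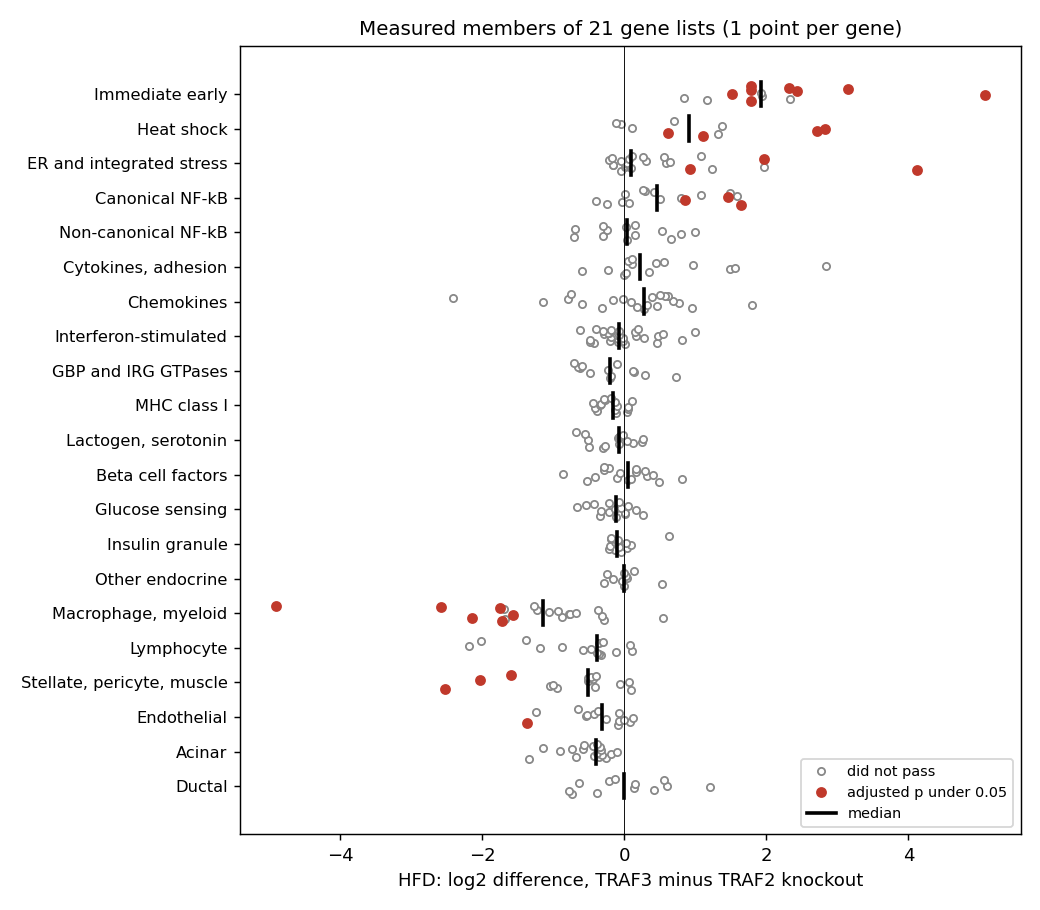
Log2 difference, HFD TRAF3 knockout minus HFD TRAF2 knockout, of each measured member of 21 gene lists, 1 point per gene, filled where the adjusted p was under 0.05, with a bar at the list median. Immediate early genes lie to the right, macrophage and contractile genes to the left, and interferon, MHC class I, beta cell and exocrine lists hold no filled point.

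Of the 37 gene lists described, 25 had no member passing on HFD. Among them were the lists that define the beta cell. None of 14 insulin granule genes passed in limma (median -0.10, 1 with an unadjusted p under 0.05), with Ins2 at -0.07 ± 0.17, and none of 17 beta cell transcription factors (median 0.05, 3 with an unadjusted p under 0.05), with Mafa at 0.31 and Pdx1 at -0.22. Glucose sensing genes gave Slc2a2, the glucose transporter GLUT2, at -0.42 and G6pc2 at -0.32, and 0 of 16 passed (1 with an unadjusted p under 0.05). Interferon-stimulated genes did not separate the knockouts on HFD: 0 of 30 passed in limma (3 at an unadjusted p under 0.05), with a median of -0.08. The same held for 13 guanylate-binding protein and immunity-related GTPase genes (2 at an unadjusted p under 0.05) and 16 MHC class I genes (0 at an unadjusted p under 0.05). A missed threshold does not show that the knockouts were alike, and the median standard error of a difference was 0.18.

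Genes known to respond to lactogenic hormones did not separate the knockouts detectably, while the controls had other levels. Tph1, the enzyme that starts serotonin synthesis, read 11.08, 10.27 and 9.95 in TRAF3 knockouts, against 11.37, 10.75 and 10.84 in TRAF2 knockouts and 3.76, 3.99 and 4.55 in HFD controls, a difference between the knockouts of -0.55 ± 0.88 (adjusted p = 0.88). None of the 15 genes of that list passed in limma, and none had an unadjusted p under 0.05. Tph2 had a difference of -0.68.

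Against the HFD controls, which lie outside the contrast but share its arrays in any comparison of levels, the differing genes mostly had the TRAF3 knockouts away from the controls. In 137 of the 139 genes higher, all 3 TRAF3 knockout arrays were above all 3 controls, an order found in 8.61% of all genes. The TRAF2 knockout arrays overlapped the controls in 116 of the 139, were above them in 16 (7.83% of all genes) and below in 7 (6.87%). In 88 of the 94 genes lower the TRAF3 knockouts were below the controls (7.98% of all genes). The TRAF2 knockouts overlapped the controls in 83 of the 94, were above in 11 (7.83% of all genes) and below in 0 (6.87%). Most of all genes overlapped in that way too, so the overlap is not particular to these genes. Since the same TRAF3 knockout arrays enter both comparisons, these counts are levels and not separate evidence.

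**Figure D4:**
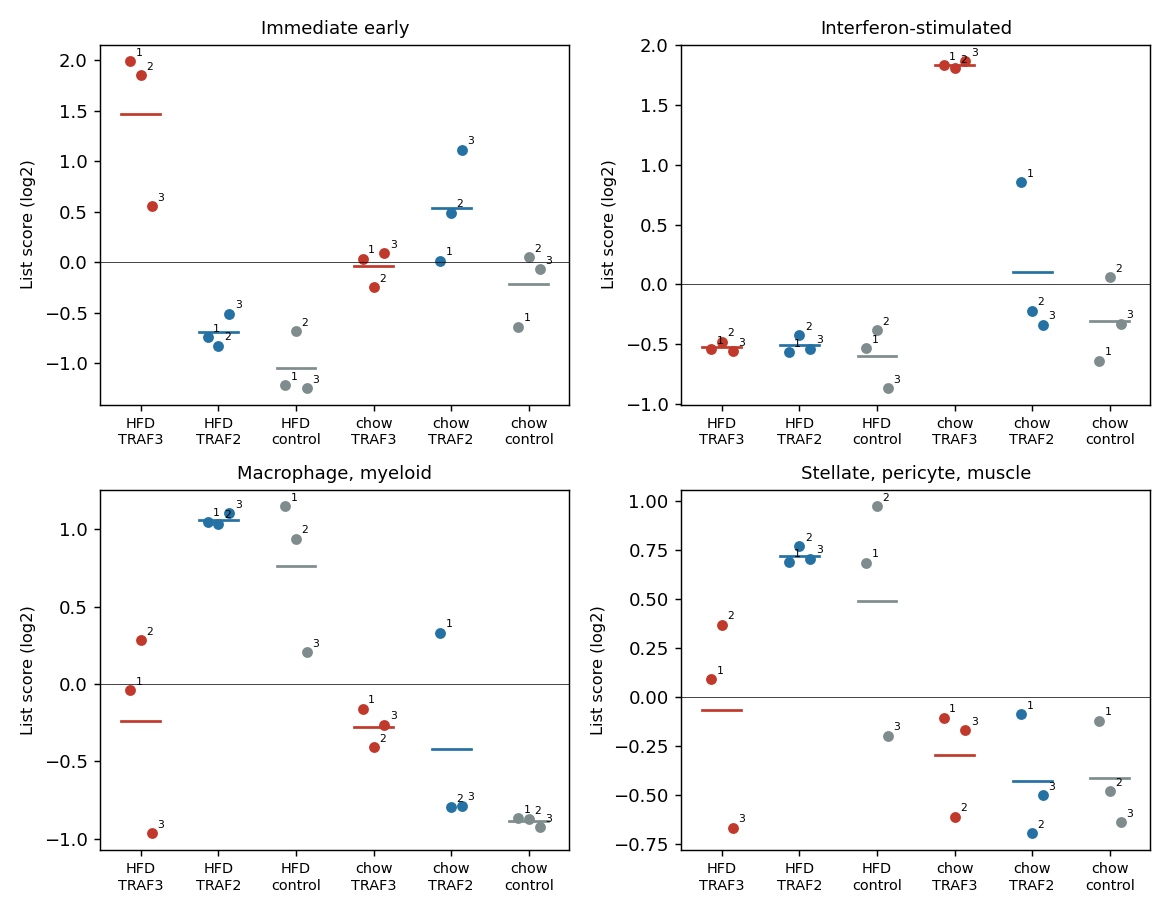
List score of each array (average over the members of how far each lies from its own 18-array mean, log2 units) for 4 lists in the 6 groups, with replicate numbers beside the points and a bar at each group mean. HFD TRAF3 knockouts are highest for immediate early genes, and chow TRAF3 knockouts are highest for interferon-stimulated genes.

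Per-array scores, which average over a list how far each member lies from its own 18-array mean, show how the lists ran together. For immediate early genes they were 1.99, 1.85 and 0.55 in HFD TRAF3 knockouts, -0.74, -0.82 and -0.51 in HFD TRAF2 knockouts and -1.22, -0.69 and -1.25 in HFD controls. For macrophage genes they were -0.04, 0.28 and -0.97 in HFD TRAF3 knockouts, 1.05, 1.03 and 1.10 in HFD TRAF2 knockouts and 1.15, 0.94 and 0.20 in HFD controls, whereas the 9 chow arrays lay between -0.92 and 0.33. For smooth muscle genes they were 0.09, 0.37 and -0.67 in HFD TRAF3 knockouts, 0.69, 0.77 and 0.70 in HFD TRAF2 knockouts and 0.68, 0.97 and -0.20 in HFD controls, so that the controls overlapped the TRAF3 knockouts. TRAF3 knockout array 3 was thus the lowest of the HFD knockouts for macrophage and smooth muscle genes and the lowest of its group for immediate early genes. Acinar scores were -0.14, -1.30 and 0.76 in TRAF3 knockouts and 0.25, 0.20 and 0.46 in TRAF2 knockouts, and lymphocyte scores -0.82, 1.80 and -0.73 in TRAF3 knockouts and 0.06, 1.22 and 1.05 in TRAF2 knockouts. With the acinar score in the fit all 233 genes still passed, and with the lymphocyte score 189 did.

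The same genotype contrast was then read in the 6 chow arrays, which share no array with the HFD contrast. On chow 446 genes passed (2.01% of those tested), 319 higher in TRAF3 knockouts (1.44%) and 127 lower (0.573%), but only 11 of the 233 HFD genes were among them and 1 of those with the same sign. Of the 139 genes higher on HFD 109 had a negative difference on chow, and of the 94 lower 57 had a positive one. Fosb had 5.08 on HFD and -2.63 ± 0.99 on chow (SE, adjusted p = 0.18), where it read 6.60, 6.94 and 6.40 in TRAF3 knockouts and 6.15, 10.23 and 11.44 in TRAF2 knockouts, which overlapped. Without chow TRAF2 knockout array 1 or 3 the chow difference of Fosb was -4.19 and -1.54. Retnla had -4.91 on HFD and 1.14 on chow (adjusted p = 0.16). The Pearson correlation of the 2 log2 differences over the 233 genes was -0.53, and over all genes -0.12, as a description across genes, which are not independent. With only the compared arrays in the fit the chow count was 3, and the HFD count was 158 (98 of the 233). Chow TRAF2 knockout array 1 correlated less with its own group (0.9718 and 0.9665) than with the chow TRAF3 knockouts (0.9871, 0.9802 and 0.9799). The chow count was 1708 without chow TRAF2 knockout array 1 and 53 and 33 without chow TRAF2 knockout array 2 or 3. It was 72 and 44 without chow TRAF3 knockout array 1 or 3.

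The difference of the contrast between diets was tested directly. It passed for 606 genes (2.73%), and for 158 of the 233 HFD genes (100 higher and 58 lower). The HFD difference that selected the 233 is part of this test. The 158, and the list counts given below, are therefore not separate evidence from the HFD and chow counts. In place of 606, the count was 244, 169 and 191 without HFD TRAF2 knockout array 1, 2 or 3, and 269 without HFD TRAF3 knockout array 2. It was 1582, 236 and 140 without chow TRAF2 knockout array 1, 2 or 3, and 261, 399 and 173 without chow TRAF3 knockout array 1, 2 or 3. Of the immediate early genes 9 of 13 passed this test with a more positive TRAF3 minus TRAF2 difference on HFD (1.16% of all genes did), and of the macrophage genes 4 of 20 with a more negative one (1.57% of all genes). Interferon genes ran the other way: 24 of 30 were higher in TRAF3 knockouts on chow, where 1.44% of all genes were, and 0 on HFD. The difference between diets passed for 15, all more negative on HFD (1.57% of all genes). Irf7, a factor that amplifies interferon signalling, had 6.61, 6.95 and 6.32 in TRAF3 knockouts and 6.21, 6.53 and 6.31 in TRAF2 knockouts on HFD, a difference of 0.28, against 3.69 on chow. The interferon list score was -0.54, -0.48 and -0.56 in HFD TRAF3 knockouts and 1.84, 1.81 and 1.87 in chow TRAF3 knockouts. In TRAF2 knockouts it was -0.57, -0.43 and -0.54 on HFD and 0.86, -0.22 and -0.34 on chow.

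**Figure D5:**
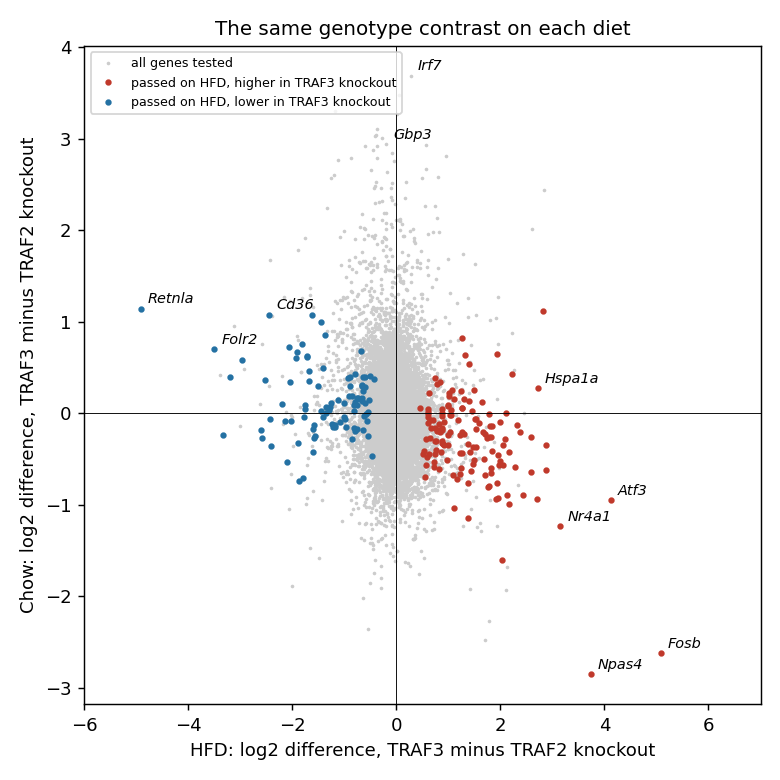
TRAF3 minus TRAF2 knockout log2 difference on HFD (horizontal axis) and on chow (vertical axis) for all 22180 genes, with the 139 genes higher and 94 lower on HFD in colour. Most coloured genes lie near 0 or on the opposite side of it on chow, and the genes highest on chow, such as Irf7 (3.69) and Gbp3 (2.94), lie near 0 on HFD.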

How the data were processed

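The authors deposited 1 log2 value per probe set and array, and per the submitters' processing notes they were made with RMA (background correction, quantile normalization and summary) and limma. Their versions, the genome build and whether all arrays were normalized together are not given in the sources used here. The 18 columns had medians of 4.80 to 4.96 and no pair was identical. Probe sets took symbols from the platform annotation: of 41345, 23521 had 1 symbol, 1814 several and 16010 none, and only the first kind was named. Each gene was represented by the probe set with the highest mean over the 18 arrays (1082 genes had several). Group means of 6 groups were fitted in limma 3.58.1 (R 4.3.3) with eBayes, 12 residual and 3.69 prior degrees of freedom, and Benjamini-Hochberg adjustment over 22180 genes. The script was tested on simulated data. Of 625 listed genes 561 were measured.

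Members and lists were chosen with earlier results of these data known, and 6 lists after their values were seen. Named genes are the 15 largest rises and falls that passed on HFD, the 5 largest of each sign in the diet test, and up to 5 passing members of each list (or its first 3 where none passed). Others, among them Csf1r, Btg2, Junb, Ier2, Srf and Neat1, were chosen after their values were seen. Of the genes passing, 30 have their lower group below the median of every array. Alternatives were another centring, quantile normalization, trend and robust eBayes, filters, other rows per gene, arrays in the fit, a replicate block, covariates and leaving out each array. Replicate numbers were not taken as pairs. Deviations of same-numbered HFD knockout arrays correlated at 0.147, 0.049 and 0.132, and number follows sex only in that array 1 of each was male.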

Additional observations from a re-analysis of the deposited data

Results flagged for a closer look

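By the limma interaction term, the TRAF3 minus TRAF2 knockout difference itself differed between HFD and chow for the 14 named genes given here. As HFD minus chow on the log2 scale, it was 7.70 ± 1.40 for Fosb (SE, adjusted p = 0.012), 6.59 for Npas4, 5.08 for Atf3 and 4.38 for Nr4a1. Rsph4a, a radial spoke protein of motile cilia, had 3.81, with a difference of 2.13 on HFD that did not pass and -1.68 on chow. Among genes of macrophages it was -6.05 ± 0.57 for Retnla (adjusted p = 0.00017), -4.21 for Folr2, -3.60 for Cd209d, -3.51 for Cd36 and -4.09 for Pf4, a chemokine of platelets and macrophages, which had -2.42 on HFD without passing and 1.68 on chow. Among interferon and antigen presentation genes, whose HFD differences lay between -0.41 and 0.28, it was -3.41 for Irf7, -1.77 for Stat2, -3.13 for Gbp3 and -2.36 for H2-T23. The HFD and chow differences are parts of this test, so it is not separate evidence of either. The 14 are a selection, since other named genes passed this test too. Among those were Arc (3.24), Atf4 (1.02), Bag3 (0.96), Adgre1 (-2.35) and Acta2 (-2.89). No explanation of these differences was tested.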

How the results depend on the processing

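Of the 233 genes of the HFD contrast, 47 (27 higher, 20 lower) passed in all 6 fits that left out 1 HFD knockout array. Of 46 genes named by the rule that passed, 23 passed in all 6. The count was 188 with each array centred on its median, 305 with quantile normalization applied again, 225 with trend and robust eBayes, 245 without dim genes, 188 over every probe set and 158 with only the 6 compared arrays in the fit (98 shared). It moved by over 1.5 times with the acinar score (628) or the ductal score (396) as covariate, and ranged from 60 to 257 with 1 array left out. A replicate block gave 217 genes, 198 of them shared. Deviations of each HFD TRAF3 knockout array correlated best with those of the TRAF2 knockout array of its own number. Sex sets array 1 apart but not array 2 from array 3, where same numbers gave 0.049 and 0.132 and crossed numbers -0.029 and -0.041. What the numbers stand for was not tested. The chow count of 446 became 793 without dim genes, 248 over every probe set, 3 with only the compared arrays, 912, 76 and 970 with acinar, ductal or lymphocyte score, and 33 to 1708 with 1 array left out. The diet test gave 606, 334 over every probe set, and 140 to 1582 with 1 array left out. The number of genes whose arrays do not overlap, 3993, was 6686 over every probe set. The HFD difference of Gbp3, -0.19, was 0.091 with the lymphocyte score. Among further members given with a difference that did not pass, signs turned for Hsp90b1 with median centring (-0.018) or the acinar score (-0.045), Dnajb9 with median centring (-0.036) or the lymphocyte score (-0.017), Sel1l (0.060), Abcc9 (-0.28) and Fcer1a (0.042) with the acinar score, Arg1 with the lymphocyte score (0.029), and Kit with the lymphocyte score (0.049) or quantile normalization again (0.025). With 1 array left out the difference spanned 0 for Hspd1 (-0.19 to 0.12), Hspe1 (-0.30 to 0.038), Hsp90b1 (-0.078 to 0.19), Dnajb9 (-0.040 to 0.072), Sel1l (-0.38 to 0.085), Aif1 (-0.48 to 0.048), Chil3 (-0.24 to 0.023), Pdgfrb (-0.72 to 0.018), Abcc9 (-0.30 to 0.45), Kit (-0.050 to 0.00053) and Fcer1a (-0.28 to 0.084). The chow and overlap alternatives were chosen after seeing the data, and the cause of these changes was not tested. Signal over background could not be read, since no detection value is in the table used here.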
